A study of Mus musculus with 12 samples.

Results

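The genes described here are 10 members of the BCL2 family, which sets whether a cell survives or dies through its mitochondria. They were chosen by symbol, matched through the GENCODE annotation of the mouse genome (GRCm38) to their Ensembl identifiers among the 55536 features of the deposited count table, and all 10 were found. By their textbook roles, 4 members are prosurvival (*Bcl2*, *Bcl2l1*, *Mcl1* and *Bcl2a1b*) and 6 are proapoptotic, of which 4 are BH3-only (*Bcl2l11*, *Bbc3*, *Pmaip1* and *Bid*) and 2 are effectors (*Bax* and *Bak1*). RNA-seq was performed on B lymphocytes from the spleens of C57BL/6 mice, cultured for 48 h and sequenced as 12 libraries. All mice, controls included, were heterozygous for a Cre allele active in the B lineage, and only the Pdap1-deficient mice also had both *Pdap1* alleles floxed (Pdap1 F/F), which Cre deletes in those cells. Splenocyte cultures from 3 mice of each genotype received either lipopolysaccharide with interleukin 4 (LPS-IL-4), which drives switching to IgG1, or lipopolysaccharide with B cell activating factor and transforming growth factor beta (LPS-BAFF-TGFb), which drives switching to IgG2b. The mice were 7 to 27 weeks old and of both sexes, and the age of each animal is not given in the sources used here. Each of the 4 groups holds 3 mice, and mouse numbers are shared by the 2 cultures of an animal. The sample labels also name the B cell line CH12, whereas the series description and the study's methods give mice, and these are followed here. Sex-linked genes, given below, placed the libraries in both sexes.

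In the mitochondrial pathway of apoptosis, the effectors *Bax* and *Bak1* open the outer mitochondrial membrane and release cytochrome c, which activates caspases. Prosurvival proteins hold the effectors in check, and BH3-only proteins bind the prosurvival proteins or engage the effectors and so tip the cell toward death. Mature B cells depend on these proteins: BAFF is a survival factor of B cells that acts through its receptors and noncanonical NF-kB, and IL-4 signals through Stat6.

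The libraries held 9386667 to 15869143 counts with LPS-IL-4 and 4579793 to 69500640 with LPS-BAFF-TGFb. The library of control mouse 1 with LPS-BAFF-TGFb, the deepest, stood apart: in it 4.17% of 15794 genes were at least 2-fold above both other libraries of its group. Both libraries of Pdap1-deficient mouse 2 also stood apart (3.18% and 2.7%), against 0.0507% to 0.437% in the other 9. The LPS-BAFF-TGFb library of Pdap1-deficient mouse 1 differed in another way. Its top gene, *Lars2*, held 9.9% of its counts, against at most 3.38% for the top gene of any other library. Its mitochondrial share was 4.34%, against 1.99% to 3.3% elsewhere. The part of this in the other values was not tested. *Pdap1* was at 91.4 to 97.8 CPM (counts scaled to a common library total, with TMM factors) in control and 23.3 to 29.9 in Pdap1-deficient libraries with LPS-IL-4, and at 80.3 to 199 against 23.0 to 26.5 with LPS-BAFF-TGFb, the 199 being the deep library. By edgeR it fell with LPS-IL-4 (log2 fold change -1.82, SE 0.11, adjusted p = 3.52e-05), and with LPS-BAFF-TGFb the log2 fold change was -2.33 (SE 0.36, adjusted p = 0.0929), or -1.85 without control mouse 1 (adjusted p = 4.9e-06). The 7 B cell markers summed to 2503 to 3773 CPM and none was at 0 in any library. The 6 plasma cell markers summed to 450 to 892 CPM, the 6 erythroid markers to 8.18 to 23.7 CPM and the 7 T cell markers to 0.323 to 22.4 CPM, the last in Pdap1-deficient mouse 2, and the 5 NK cell markers to 0.572 to 4.07 CPM. The 8 myeloid markers summed to 337 and 566 CPM in the cultures of Pdap1-deficient mouse 2 and to 34.5 and 79.1 in those of mouse 3, against 5.22 to 24.96 in the other 8. From *Xist* and the Y-linked genes, control mice 1 and 3 and Pdap1-deficient mouse 1 were female and the other 3 were male in both cultures.

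All 10 members passed the filter on low counts in every comparison, with raw counts from 20 (*Bcl2a1b*) to 26737 (*Mcl1*). To set the members side by side, CPM was divided by the exon length of each gene in kilobases. *Mcl1* was the most abundant member in all 4 groups, at 107 ± 0.767 CPM per kb (SD, n = 3) in control cells with LPS-IL-4 and 123 ± 1.03 CPM per kb in those given LPS-BAFF-TGFb. *Bid* came next in each group, at 30.4 ± 0.823 and 35.5 ± 1.87 CPM per kb in the same control groups. Below these 2 genes the order depended on the culture. With LPS-IL-4, control cells had *Pmaip1* at 17.6 ± 1.55 and *Bcl2l1* at 15.7 ± 1.19 CPM per kb, and the ranges of these neighbours overlapped. *Bax* (12.1 ± 1.94), *Bcl2* (9.68 ± 0.15) and *Bcl2l11* (8.42 ± 0.584) followed on that scale, each with a range clear of the gene above it. With LPS-BAFF-TGFb, *Bcl2* came after *Mcl1* and *Bid* in control cells at 21.3 ± 0.94 CPM per kb, and *Bcl2l11* was last at 2.26 ± 0.0785. The ranges of all neighbours from *Bcl2* downward overlapped in that group, which holds the deep library. In Pdap1-deficient cells *Bcl2* likewise followed *Bid* with LPS-BAFF-TGFb, at 19.9 ± 0.358 CPM per kb, clear of *Bax* at 8.501 ± 1.31, and *Bbc3* was last in both cultures. With the longest annotated transcript as the length, *Mcl1* and *Bid* still led in all 4 groups, but lower neighbours changed places. In control cells *Bcl2l1* then came before *Pmaip1* and *Bcl2l11* before *Bcl2* with LPS-IL-4, and *Bcl2l1* moved up to follow *Bax* with LPS-BAFF-TGFb.

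**Figure D1:**
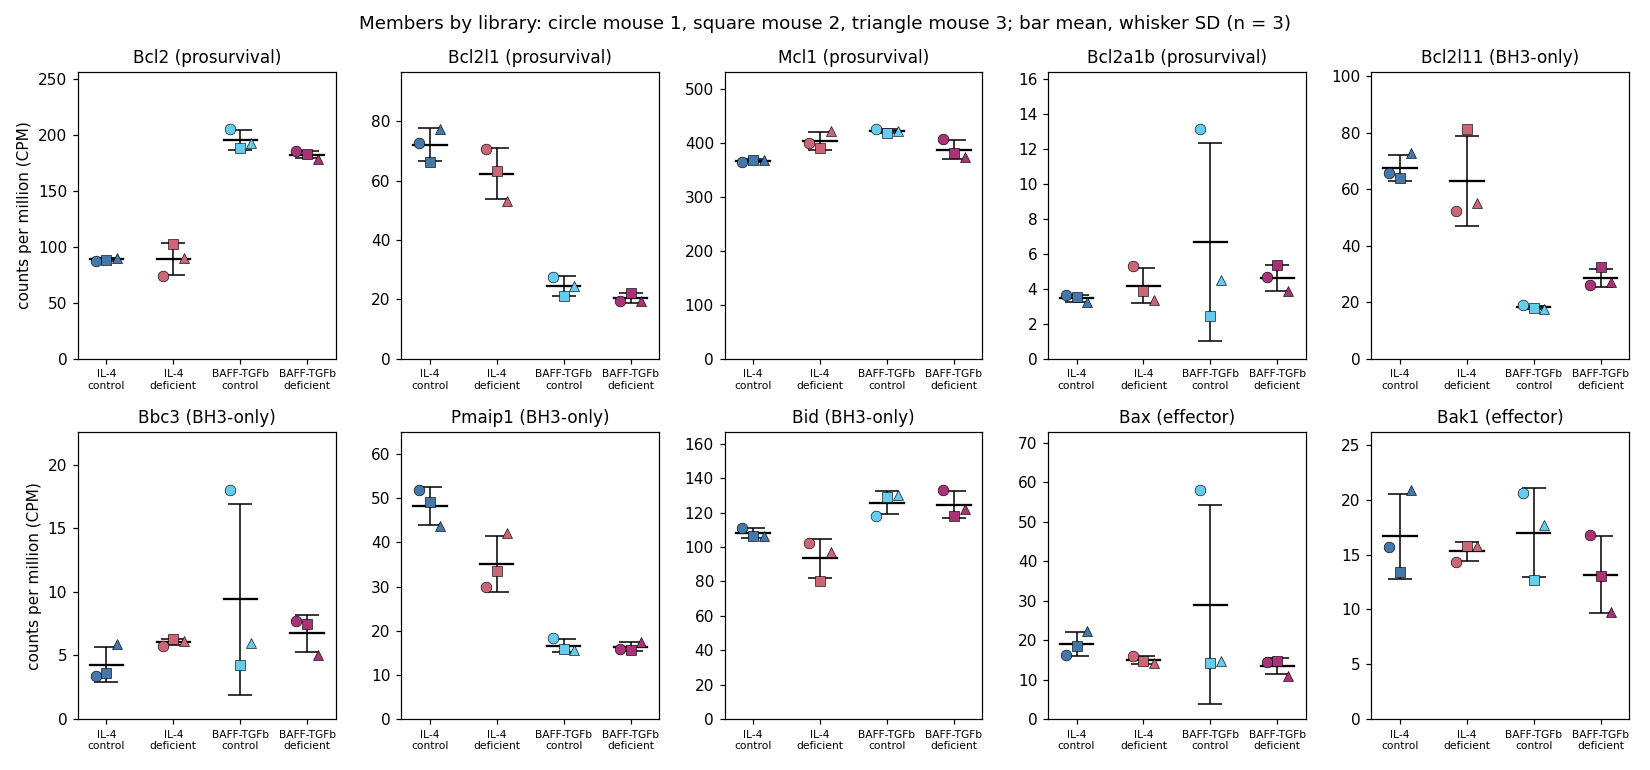
CPM (y axis, linear from 0) of each of the 10 members in the 12 libraries, by group (x axis). Symbols mark the mouse, horizontal bars the mean and whiskers the SD of 3 mice. *Bcl2* is at 73.8 to 102 CPM with LPS-IL-4 and at 179 to 205 with LPS-BAFF-TGFb, *Bcl2l1*, *Bcl2l11* and *Pmaip1* are lower with LPS-BAFF-TGFb in both genotypes, and the circle of the control LPS-BAFF-TGFb group lies far above its group for *Bax*, *Bbc3* and *Bcl2a1b*.

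The comparison of the cultures asks how the members' mRNA differs between them within a genotype. The cultures differ in IL-4 against BAFF together with TGFb, and the study reports faster proliferation with LPS-BAFF-TGFb. At the single time of 48 h the parts of each agent and of cell division cannot be told apart. Between LPS-IL-4 and LPS-BAFF-TGFb, a prosurvival pair moved in opposite directions: *Bcl2* was 2.20-fold higher and *Bcl2l1* fell to 34.1% of its LPS-IL-4 level in control cells. The BH3-only genes *Bcl2l11* and *Pmaip1* fell as well, to 26.95% and 34.5%. In control cells these 4 of the 10 members passed the test (1 higher, 3 lower), where 18.2% of all 15794 genes passed (9.93% higher, 8.22% lower). In Pdap1-deficient cells 5 members passed (2 higher, 3 lower), where 13.6% of all genes passed (6.64% higher, 6.93% lower), the additional one being *Bid*. A further fit left out control mouse 1 and Pdap1-deficient mouse 2, which hold the libraries that stood apart. In it *Bax* (-0.50, adjusted p = 0.0449 by edgeR) and *Bid* (0.29, adjusted p = 0.0277) also passed in control cells. The members called in Pdap1-deficient cells were unchanged. The share of all genes that passed in that fit is not given here, so the added calls have no background to stand beside. The median log2 fold change of the 10 members was 0.21 in control and -0.12 in Pdap1-deficient cells, and that of all genes tested was 0.0347 and -0.00399. Markers of B cells and plasma cells also moved with the culture. Of the 7 B cell markers, 1 rose and 3 fell with LPS-BAFF-TGFb in control cells and 0 rose and 3 fell in Pdap1-deficient cells (median log2 fold change -0.17 and -0.06). Of the 5 plasma cell markers tested, 1 rose and 3 fell, and 0 rose and 2 fell (median -1.56 and -1.58), their sum being 622 to 892 CPM over the LPS-IL-4 libraries and 450 to 527 CPM over the LPS-BAFF-TGFb libraries. The part of this in the members' values was not tested. The cultures did not overlap for 6 members in control and 5 in Pdap1-deficient cells, nor for 37.1% and 28.6% of all genes. Groups were tested with edgeR's quasi-likelihood test on all 12 libraries, and p-values were adjusted over all genes by Benjamini-Hochberg, with a threshold of 0.05. The 2 cultures of a mouse were not paired in that test.

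*Bcl2* (ENSMUSG00000057329, GRCm38 chromosome 1 from 106538178 to 106714274, minus strand) encodes the founding prosurvival protein of the family. In control mice 1, 2 and 3 it was at 87.5, 88.3 and 90.2 CPM with LPS-IL-4 and at 205, 188 and 192 CPM with LPS-BAFF-TGFb. In Pdap1-deficient mice it was at 73.8, 102 and 90.4 CPM and at 185, 183 and 179 CPM. All 6 mice had more *Bcl2* mRNA with LPS-BAFF-TGFb, and the cultures did not overlap in either genotype. The log2 fold change was 1.14 (SE 0.11, adjusted p = 5.25e-06 by edgeR) in control and 1.04 (SE 0.11, adjusted p = 1.75e-05) in Pdap1-deficient cells. *Bcl2* overlaps the gene *D630008O14Rik* on the other strand over 558 bases of exon, and whether counting used the strand is not given in the sources used here.

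*Bcl2l1* (ENSMUSG00000007659, chromosome 2 from 152780668 to 152831728, minus strand) encodes Bcl-xL, the prosurvival protein that *Bcl2* is most often set beside. It was at 72.6, 66.4 and 77.3 CPM in the control LPS-IL-4 cultures and at 27.6, 21.1 and 24.6 CPM in the control LPS-BAFF-TGFb cultures. In the Pdap1-deficient cultures it was at 70.6, 63.3 and 53.2 CPM and at 19.4, 22.3 and 19.5 CPM. Every LPS-BAFF-TGFb library lay below every LPS-IL-4 library. The log2 fold change was -1.55 (SE 0.13, adjusted p = 1.99e-06 by edgeR) in control and -1.62 (SE 0.14, adjusted p = 2.61e-06) in Pdap1-deficient cells. Per kb of exon, the ratio of *Bcl2* to *Bcl2l1* was 0.524 to 0.851 over the 6 LPS-IL-4 libraries and 3.71 to 4.79 over the 6 LPS-BAFF-TGFb libraries.

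*Bcl2l11* (ENSMUSG00000027381, chromosome 2 from 128126038 to 128162547, plus strand) encodes Bim, the BH3-only protein that removes surplus and autoreactive lymphocytes. It was at 65.7, 64.2 and 73.0 CPM in control cells with LPS-IL-4 and at 18.9, 18.01 and 17.7 CPM with LPS-BAFF-TGFb. In Pdap1-deficient cells it was at 52.5, 81.3 and 55.1 CPM and at 26.3, 32.4 and 27.2 CPM. The cultures were far apart in both genotypes, and with LPS-BAFF-TGFb every Pdap1-deficient library lay above every control library. *Bcl2l11* fell by 1.89 on the log2 scale (SE 0.16, adjusted p = 1.52e-06 by edgeR) in control and by 1.14 (SE 0.16, adjusted p = 0.000194) in Pdap1-deficient cells. The ratio of *Bcl2l11* to *Bcl2* per kb of exon went from 0.829 to 0.923 in control LPS-IL-4 libraries to 0.105 to 0.109 in control LPS-BAFF-TGFb libraries, and was 0.695 to 0.907 and 0.162 to 0.202 in the Pdap1-deficient ones.

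*Pmaip1* (ENSMUSG00000024521, chromosome 18 from 66458533 to 66465565, plus strand) encodes Noxa, a BH3-only protein that binds Mcl1. It was at 52.0, 49.1 and 43.6 CPM in control cells with LPS-IL-4 and at 18.2, 15.8 and 15.6 CPM with LPS-BAFF-TGFb. In Pdap1-deficient cells it was at 29.8, 33.5 and 42.1 CPM and at 15.97, 15.7 and 17.5 CPM. All 6 mice had less with LPS-BAFF-TGFb, and the 6 LPS-BAFF-TGFb libraries were close together. *Pmaip1* fell by 1.53 on the log2 scale (SE 0.14, adjusted p = 3.32e-06 by edgeR) in control and by 1.09 (SE 0.14, adjusted p = 0.000126) in Pdap1-deficient cells.

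*Bid* (ENSMUSG00000004446, chromosome 6 from 120891930 to 120916853, minus strand) encodes the BH3-only protein that links death receptors to mitochondria. It was at 111, 106 and 107 CPM in control cells with LPS-IL-4 and at 118, 129 and 130 CPM with LPS-BAFF-TGFb, a log2 fold change of 0.22 (SE 0.10, adjusted p = 0.167 by edgeR). In Pdap1-deficient cells it was at 103, 80.6 and 97.1 CPM and at 134, 118 and 122 CPM, a rise of 0.42 on the log2 scale (SE 0.10, adjusted p = 0.0149 by edgeR). The cultures did not overlap in either genotype. The call in Pdap1-deficient cells was lost when mouse 1 or mouse 3 of that genotype was left out (adjusted p = 0.0609 and 0.0917) and without the filter on low counts (adjusted p = 0.0715). *Bid* shares 628 bases of exon with *Bcl2l13* on the other strand.

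**Figure D2:**
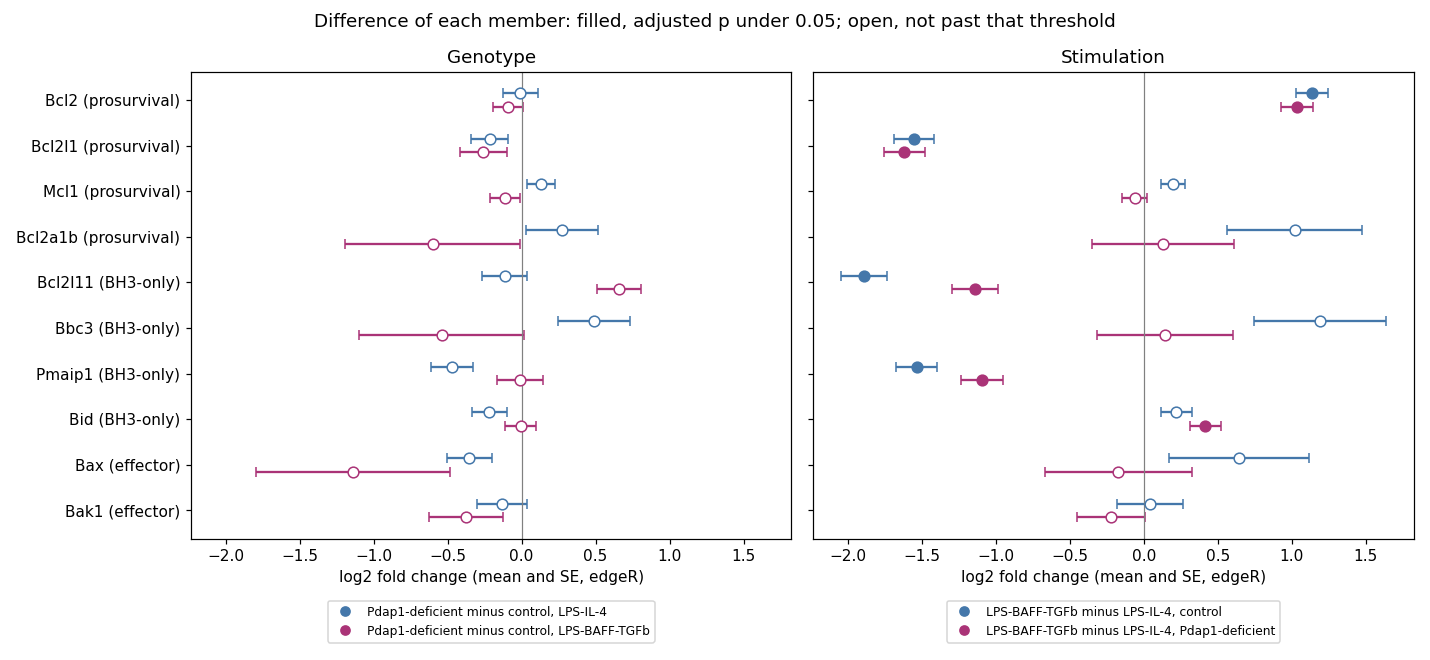
Log2 fold change (x axis) with its standard error for each member, by genotype in each culture (left) and by culture in each genotype (right). Filled points passed an adjusted p of 0.05 and open points did not. On the right, *Bcl2* lies at 1.14 and 1.04 and *Bcl2l1*, *Bcl2l11* and *Pmaip1* between -1.89 and -1.09, and on the left every point is open.

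The remaining 5 members did not pass the test between cultures in either genotype. *Mcl1* (ENSMUSG00000038612, chromosome 3 from 95658788 to 95663176, plus strand), whose protein is short-lived and required for B cell survival, was at 364, 369 and 368 CPM in control cells with LPS-IL-4 and at 425, 418 and 421 CPM with LPS-BAFF-TGFb. Its log2 fold change was 0.20 (SE 0.08, adjusted p = 0.116 by edgeR) in control and -0.06 (SE 0.08, adjusted p = 0.737) in Pdap1-deficient cells. *Bak1* (ENSMUSG00000057789, chromosome 17 from 27019810 to 27029009, minus strand) ranged from 9.73 to 20.9 CPM over the 12 libraries and its groups overlapped. It shares 614 bases of exon with *Ggnbp1* on the other strand.

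The values of *Bax*, *Bbc3* and *Bcl2a1b* in control LPS-BAFF-TGFb cells rested on the deep library. *Bax* (ENSMUSG00000003873, chromosome 7 from 45461697 to 45466898, minus strand), an effector, was at 58.2, 14.2 and 14.6 CPM in control mice 1, 2 and 3, so that the first was 4.04-fold the mean of the others. *Bbc3* (ENSMUSG00000002083, chromosome 7 from 16308393 to 16318205, plus strand), which encodes the BH3-only protein Puma, was at 18.04, 4.26 and 5.97 CPM, and *Bcl2a1b* at 13.1, 2.43 and 4.50 CPM. The excess was 3.53-fold for *Bbc3* and 3.78-fold for *Bcl2a1b*, against 0.912-fold to 1.36-fold for the other 7 members. With all libraries the log2 fold changes between cultures in control cells were 0.64 for *Bax* (SE 0.47, adjusted p = 0.408 by edgeR), 1.19 for *Bbc3* (SE 0.45, adjusted p = 0.0897) and 1.02 for *Bcl2a1b* (SE 0.46, adjusted p = 0.153). Without that library they were -0.40, 0.26 and 0.00, with adjusted p of 0.13, 0.612 and 0.997. In Pdap1-deficient cells they were -0.17, 0.14 and 0.13. *Bax* shares 192 bases of exon with *Gm45808* on the same strand.

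*Bcl2a1b* (ENSMUSG00000089929, chromosome 9 from 89199209 to 89207827, plus strand), a prosurvival gene induced by NF-kB, is 1 of several near-identical copies, and its count depends on how reads of the copies were split. The coding sequences of *Bcl2a1a*, *Bcl2a1b* and *Bcl2a1d* are 519 bases long, and *Bcl2a1b* differs from *Bcl2a1d* at 6 bases (98.8% identical) and from *Bcl2a1a* at 11 (97.9%). Of the 768 stretches of 50 bases in the *Bcl2a1b* transcript, 57.6% also occur in the *Bcl2a1d* transcript. The first 90 coding bases, where 6 positions differ among the 3 copies, are shown to give a sense of how little separates them, with those positions in capitals, from the GENCODE transcripts on GRCm38 (chromosome 9 from 88957051 to 88957140 on the plus strand, from 89199360 to 89199449 on the plus strand and from 88731630 to 88731719 on the minus strand).
Bcl2a1a: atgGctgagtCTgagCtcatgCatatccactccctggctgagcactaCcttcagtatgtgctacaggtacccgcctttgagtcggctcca
Bcl2a1b: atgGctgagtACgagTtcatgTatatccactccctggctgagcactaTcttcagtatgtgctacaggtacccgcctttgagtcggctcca
Bcl2a1d: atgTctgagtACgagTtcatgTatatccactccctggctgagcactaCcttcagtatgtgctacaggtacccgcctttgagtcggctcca
*Bcl2a1d* was counted at 87.7 to 141 CPM over the 12 libraries, *Bcl2a1b* at 2.43 to 13.1 and *Bcl2a1a* at 0.0876 to 5.90, the highest *Bcl2a1a* values (5.90 and 5.37) being those of Pdap1-deficient mouse 2. *Gm29094*, which shares 401 of the 817 exon bases of *Bcl2a1b* on the same strand, was at 0 in all libraries. The split of reads among these genes was not tested, and the *Bcl2a1b* values are uncertain.

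Promoter sequence is shown for *Bcl2l1* and *Bcl2l11*, which fell with LPS-BAFF-TGFb and whose windows held a match to a motif searched. RefSeq gave 14 promoter windows for 9 of the 10 members. The 250 bases before and 20 after each start were searched on both strands for 4 motifs chosen with the results in view. They were TTC and GAA with 4 bases between them (the spacing that Stat6 prefers), the same with 3 bases between (other Stat proteins), GGG and TTTCC with 2 bases between (kappa B) and TGTTTAC (FOXO). The Stat6 type was present in 1 member window, of *Bcl2l1*, and in 6.3% of all 32851 windows, and the other Stat type in no member window and 7.58% of all. The kappa B type was present in windows of *Bcl2l1*, *Mcl1* and *Bbc3* and in 1.5% of all, and the FOXO type in windows of *Bcl2l11* and *Bbc3* and in 3.38% of all. Capitals mark the matches, in sequence from the GRCm38.p6 build written along the gene's strand, from chr2:152828470-152828739 (minus strand) and chr2:152830698-152830967 (minus strand) for 2 starts of *Bcl2l1* and from chr2:128125788-128126057 (plus strand) for *Bcl2l11*.
Bcl2l1, Stat6 type: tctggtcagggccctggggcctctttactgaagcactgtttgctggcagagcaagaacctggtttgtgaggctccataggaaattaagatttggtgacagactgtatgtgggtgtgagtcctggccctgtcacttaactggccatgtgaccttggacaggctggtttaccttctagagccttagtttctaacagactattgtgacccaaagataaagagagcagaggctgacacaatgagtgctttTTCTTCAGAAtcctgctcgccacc
Bcl2l1, kappa B type: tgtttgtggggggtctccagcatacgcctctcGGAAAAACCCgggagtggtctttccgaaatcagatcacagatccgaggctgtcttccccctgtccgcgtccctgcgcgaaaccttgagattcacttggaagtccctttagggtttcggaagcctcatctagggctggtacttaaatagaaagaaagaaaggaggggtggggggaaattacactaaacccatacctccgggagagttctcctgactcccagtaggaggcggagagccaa
Bcl2l11, FOXO type: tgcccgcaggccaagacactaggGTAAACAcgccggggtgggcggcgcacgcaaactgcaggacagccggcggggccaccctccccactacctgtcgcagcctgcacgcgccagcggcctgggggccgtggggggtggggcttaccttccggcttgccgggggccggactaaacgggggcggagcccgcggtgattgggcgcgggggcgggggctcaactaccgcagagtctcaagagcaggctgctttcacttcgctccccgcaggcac
The Stat6 type match began at -4 from its annotated start, the kappa B match, on the opposite strand, at -218, and the FOXO match, also on the opposite strand, at -227. These are matches of letters, and binding was not measured.

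Loss of *Pdap1* was compared with control within each culture, on the 6 libraries of that culture. None of the 10 members passed the edgeR test with LPS-IL-4, where 4.92% of 15074 genes passed, and none with LPS-BAFF-TGFb, where 0.462% of 14079 passed. At an unadjusted p under 0.05 there were 2 members with LPS-IL-4 (*Pmaip1* and *Bax*) against 23.8% of all genes, and 1 with LPS-BAFF-TGFb (*Bcl2l11*) against 10.6%. DESeq2 called 1 member with LPS-IL-4 and none with LPS-BAFF-TGFb, where it called 8.9% and 0.983% of genes. In these cultures fewer cells of a type and less RNA per cell cannot be told apart. Of the 5 plasma cell markers tested, 1 rose with LPS-IL-4 and none passed in the other culture, and none of the 7 B cell markers passed in either. Their part in the members' values was not tested.

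With LPS-IL-4, *Pmaip1* came closest: its 3 Pdap1-deficient libraries (29.8 to 42.1 CPM) lay below the 3 control libraries (43.6 to 52.0 CPM). The log2 fold change was -0.47 (SE 0.14, adjusted p = 0.0786 by edgeR), which DESeq2 called at an adjusted p of 0.0411. The edgeR test without the filter on low counts also called it (adjusted p = 0.0117). *Bax*, at 16.3, 18.5 and 22.3 CPM in control and 16.1, 14.7 and 14.2 CPM in Pdap1-deficient libraries, had a log2 fold change of -0.35 (SE 0.15, adjusted p = 0.186 by edgeR). *Bid* had one of -0.22 (SE 0.12, adjusted p = 0.283). For these 3 proapoptotic genes every Pdap1-deficient library was below every control library, and for *Mcl1* every one was above, at 399, 390 and 422 CPM against 364, 369 and 368 CPM (log2 fold change 0.13, SE 0.10, adjusted p = 0.45 by edgeR). The groups did not overlap for these 4 of the 10 members, nor for 31.7% of all genes tested.

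The other members overlapped between genotypes with LPS-IL-4. *Bcl2* differed by -0.01 on the log2 scale (SE 0.12), *Bcl2l1* by -0.22 (SE 0.12), *Bak1* by -0.13 (SE 0.17), *Bcl2a1b* by 0.27 (SE 0.24) and *Bbc3* by 0.49 (SE 0.24). *Bcl2l11* differed by -0.11 (SE 0.15, adjusted p = 0.689 by edgeR), with Pdap1-deficient mouse 2 (81.3 CPM) above all controls and mice 1 and 3 (52.5 and 55.1) below them. Without that mouse the log2 fold change was -0.33 (adjusted p = 0.0407 by edgeR), in a fit that called 1459 genes in all against 741 with every library. Without control mouse 1 as well it was -0.36 and was not called (adjusted p = 0.087). It is also the animal in which the 8 myeloid markers summed to 337 CPM with LPS-IL-4, and the part of those cells in the value was not tested.

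With LPS-BAFF-TGFb, *Bcl2l11* had the smallest unadjusted p of the members (0.00138). Control libraries were at 18.9, 18.01 and 17.7 CPM and Pdap1-deficient libraries at 26.3, 32.4 and 27.2 CPM, which is 1.58-fold higher (log2 fold change 0.66, SE 0.15, adjusted p = 0.147 by edgeR). The groups did not overlap, and the Pdap1-deficient library nearest to control was still above it by more than the range of the controls. DESeq2 gave an adjusted p of 0.0958. The log2 fold change was 0.54 to 0.72 when any 1 mouse was left out and 0.58 without control mouse 1 and Pdap1-deficient mouse 2, with adjusted p of 0.0712 to 0.59 over all the alternatives. In this culture the 8 myeloid markers summed to 11.9, 566 and 79.1 CPM in Pdap1-deficient mice 1, 2 and 3, against 16.4 to 24.96 CPM in control libraries. The part of those cells in the *Bcl2l11* values was not tested. *Bcl2* and *Mcl1* lay below control in all 3 Pdap1-deficient libraries, with log2 fold changes of -0.09 (SE 0.10, adjusted p = 0.738 by edgeR) and -0.12 (SE 0.10, adjusted p = 0.676). The groups did not overlap for these 3 of the 10 members, nor for 18.6% of all genes tested.

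*Bcl2l1* (-0.26, SE 0.16), *Bak1* (-0.37, SE 0.25), *Bid* (-0.01, SE 0.11) and *Pmaip1* (-0.01, SE 0.16) overlapped between genotypes with LPS-BAFF-TGFb on the log2 fold change scale given. For *Bax*, *Bbc3* and *Bcl2a1b* the log2 fold changes were -1.14 (SE 0.65), -0.54 (SE 0.56) and -0.60 (SE 0.59) with all libraries. Without control mouse 1, whose library was the deep one, they were -0.12 (SE 0.19), 0.38 (SE 0.29) and 0.40 (SE 0.35). The direction of *Bbc3* and *Bcl2a1b* thus rested on a single library, and that of *Bax* did not, but its size did.

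Whether the effect of *Pdap1* loss differed between cultures was tested as an interaction on all 12 libraries. No member passed, and of 15794 genes 0% passed (755 had an unadjusted p under 0.05, and DESeq2 called 6 genes or 0.019%, no member among them). The interaction was 0.75 on the log2 scale for *Bcl2l11* (SE 0.22, adjusted p = 0.98 by edgeR), 0.44 for *Pmaip1* (SE 0.20, adjusted p = 0.983) and -0.26 for *Mcl1* (SE 0.12, adjusted p = 0.983), and these 3 of the 10 members had an unadjusted p under 0.05, as did 4.78% of all genes. That fit did not pair the 2 cultures of a mouse. With the mouse as a block the edgeR adjusted p was 0.377 for *Bcl2l11* (0.775, SE 0.158), 0.764 for *Pmaip1* and 0.785 for *Mcl1*. For *Bcl2l11* it was 0.146 (0.925, SE 0.169) without a block when control mouse 1 and Pdap1-deficient mouse 2 were left out.

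The prosurvival and proapoptotic members were also summed per library as CPM per kb. With LPS-IL-4, the 4 prosurvival members summed to 136 to 138 CPM per kb in control and 144 to 149 in Pdap1-deficient libraries. The 6 proapoptotic members summed to 74.9 to 80.7 in control and 63.9 to 68.0 in Pdap1-deficient libraries on the same scale. The ratio of the sums was therefore 1.71 to 1.82 in control and 2.19 to 2.25 in Pdap1-deficient libraries, without overlap. With LPS-BAFF-TGFb the ratio was 1.75, 2.48 and 2.42 in the control libraries of mice 1, 2 and 3, against 2.24, 2.33 and 2.39 in the Pdap1-deficient libraries. The lowest of these is the deep library, and the other control libraries were above all 3 Pdap1-deficient ones. From LPS-IL-4 to LPS-BAFF-TGFb, control mice 1, 2 and 3 went from 1.77, 1.82 and 1.71 to 1.75, 2.48 and 2.42. Pdap1-deficient mice 1, 2 and 3 went from 2.25, 2.25 and 2.19 to 2.24, 2.33 and 2.39. These ratios are descriptions with no test. The prosurvival sum holds *Bcl2a1b* but not its near-identical copy *Bcl2a1d*. That copy was counted at 87.7 to 141 CPM over the libraries, against 2.43 to 13.1 CPM for *Bcl2a1b*. The sums, ratios and shares therefore hold for the listed members only, and sums that include *Bcl2a1d* were not made. Among the listed members, *Mcl1* made up 73.7% to 82.8% of the prosurvival sum and *Bid* 34.6% to 59.9% of the proapoptotic sum. Without them the mean log2 ratio was -0.67 ± 0.0559 (SD, n = 3) in control and -0.47 ± 0.194 in Pdap1-deficient cells with LPS-IL-4, and -0.02 ± 0.416 and 0.17 ± 0.119 with LPS-BAFF-TGFb.

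**Figure D3:**
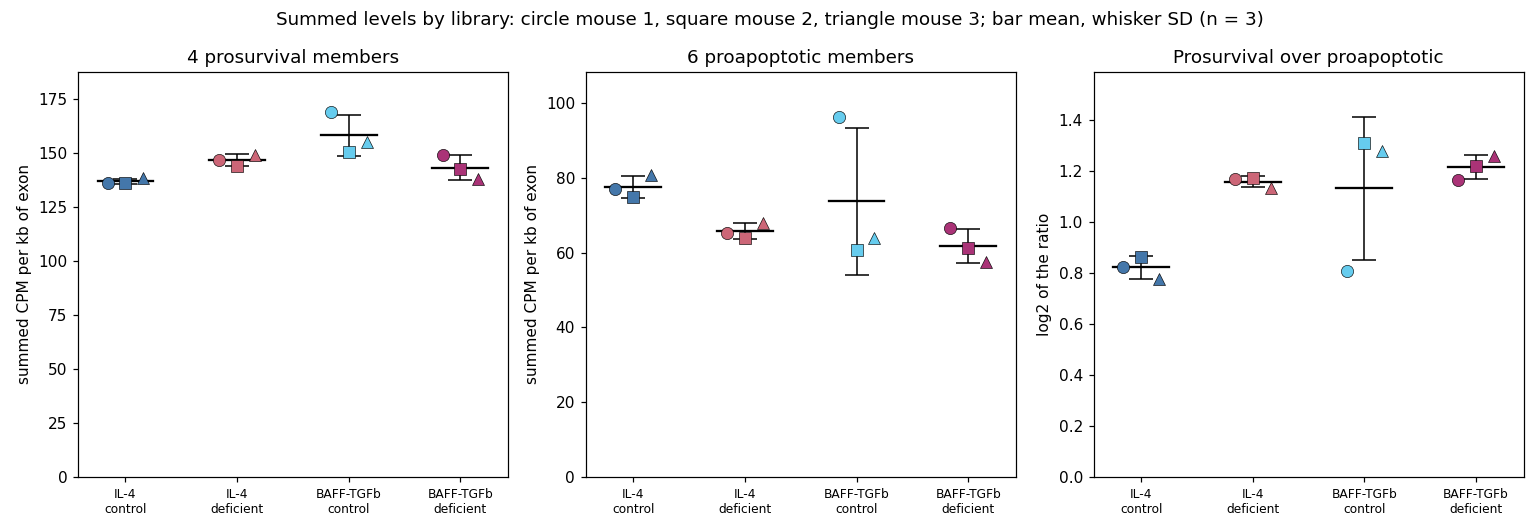
Summed CPM per kb of exon of the 4 prosurvival members (left), the 6 proapoptotic members (middle) and the log2 of their ratio (right) in each library, by group; symbols mark the mouse, bars the mean and whiskers the SD of 3 mice. With LPS-IL-4 the log2 ratio lies at 0.78 to 0.86 in control and 1.13 to 1.17 in Pdap1-deficient libraries, and with LPS-BAFF-TGFb control mouse 1 lies at 0.81, below the other 5 libraries.

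Other genes around the family were read from lists chosen by function. Of 13 other BCL2 family genes, 7 were tested, and 2 rose with LPS-BAFF-TGFb in each genotype while none fell. Of all genes, 9.93% rose and 8.22% fell in control and 6.64% rose and 6.93% fell in Pdap1-deficient cells, and the counts of the lists that follow stand beside these shares. The 2 that rose were *Bmf*, a BH3-only gene, and *Bcl2l15*. *Bmf* was at 4.56 to 10.9 CPM in the LPS-IL-4 libraries and 22.6 to 36.5 CPM in the LPS-BAFF-TGFb libraries. Its log2 fold change was 2.26 (SE 0.20, adjusted p = 2.55e-06 by edgeR) in control and 1.98 (SE 0.20, adjusted p = 1.05e-05) in Pdap1-deficient cells. *Bcl2l15* was near the floor with LPS-IL-4, at 0.547 to 1.15 CPM, against 5.36 to 6.61 CPM with LPS-BAFF-TGFb. The size of its log2 fold changes (2.88 and 3.09) therefore rests on few reads and is uncertain. *Bmf* thus moved opposite to *Bcl2l11* and *Pmaip1*. Neither *Bmf* nor *Bcl2l15* passed by genotype. In both cultures every Pdap1-deficient library had more *Bmf* than every control library. With LPS-IL-4 it was at 7.625 to 10.9 against 4.56 to 6.835 CPM. With LPS-BAFF-TGFb it was at 34.0 to 36.5 against 22.6 to 32.5 CPM. Of the 7 genes tested, 2 lay wholly above control and 1 below with LPS-IL-4, and 1 above and 2 below with LPS-BAFF-TGFb. The genotypes did not overlap for 31.7% and 18.6% of all genes tested.

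Among 7 tested of 10 death receptor genes, *Fas* (1.42 and 1.28 on the log2 scale in control and Pdap1-deficient cells) and *Tnfrsf10b* (1.06 and 0.91), which encodes the TRAIL receptor, rose with LPS-BAFF-TGFb, and 2 genes fell in control and 1 in Pdap1-deficient cells. Of 7 inhibitors of apoptosis, 3 fell in control and 1 in Pdap1-deficient cells, where 8.22% and 6.93% of all genes fell. *Cflar*, whose product c-FLIP blocks caspase-8, fell by 0.66 (SE 0.09, adjusted p = 0.000205 by edgeR) and 0.56 (SE 0.10, adjusted p = 0.00109) on the log2 scale. *Birc2* and *Birc3* fell in control cells by 0.38 and 0.40 (adjusted p = 0.0119 and 0.0447), and *Birc3* was at -0.31 in Pdap1-deficient cells (adjusted p = 0.147). *Birc3* in control cells rested on the deep library, without which it was at -0.25 (adjusted p = 0.0958 by edgeR), and its call was lost when any 1 control mouse, or Pdap1-deficient mouse 1 or 3, was left out (adjusted p = 0.0543 to 0.202). None of these inhibitors or receptors passed by genotype in either culture.

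Of 9 genes for BAFF receptors and noncanonical NF-kB, 8 were tested and 3 rose in each genotype with LPS-BAFF-TGFb, where 9.93% (control) and 6.64% (Pdap1-deficient) of all genes rose. *Tnfrsf13b*, which encodes TACI, had log2 fold changes of 0.68 in control and 0.57 in Pdap1-deficient cells, *Tnfrsf13c*, which encodes the BAFF receptor, of 0.61 and 0.35, and *Nfkb2*, which encodes the NF-kB precursor p100, of 0.49 and 0.58. The control value of *Nfkb2* also rested on the deep library: it was 0.28 without it (adjusted p = 0.0734 by edgeR), 0.25 without control mouse 1 (adjusted p = 0.205) and 0.58 without control mouse 2 (adjusted p = 0.0633), none of which passed. Of 5 genes for Mcl1 turnover, *Fbxw7*, part of a ubiquitin ligase for Mcl1, fell by 0.85 and 0.63, and *Huwe1*, another ligase for it, was at -0.26 and -0.27 without passing (adjusted p = 0.09 and 0.0886 by edgeR). Among 12 apoptosome and caspase genes 2 passed in control and 3 in Pdap1-deficient cells, where 18.2% and 13.6% of all genes passed. *Casp2* rose in both (0.39 and 0.37), and *Casp6* fell in control (-0.76), a call lost when any 1 control mouse or Pdap1-deficient mouse 1 was left out. Of 12 tested p53 target genes, 1 rose and 2 fell in each genotype, *Sesn1* rising by 0.75 and 0.64 and *Aen*, an apoptosis-enhancing nuclease, falling by 0.60 and 0.38, where the same shares of all genes passed. In Pdap1-deficient cells, leaving out 1 mouse of that genotype ended the calls of *Aen*, *Nfkb2* and *Tnfrsf13c* (any mouse), *Casp2* (mouse 1 or 3) and *Sesn1* (mouse 3). In control cells it ended those of *Casp2* (mouse 2 or 3) and *Birc2* (mouse 1 or 2), and over all of these the adjusted p was 0.0541 to 0.384 by edgeR. *Aen* and *Tnfrsf13c* in Pdap1-deficient cells were not called without control mouse 2 or 3 either (adjusted p = 0.0657 to 0.0775).

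Genotype moved another group. Of 8 Atf4 and Chop targets linked to death, 5 rose in Pdap1-deficient cells with LPS-IL-4, 3 did so with LPS-BAFF-TGFb, none fell, where 4.92% and 0.462% of all genes passed in either direction, and the median log2 fold change of the 8 was 1.03 and 0.45 (0.02 and 0.01 over all genes tested). The study had already reported a rise of Atf4-dependent stress genes, *Chac1* among them, from these same libraries. This list was chosen with earlier results known, so its counts are a description and not an independent test. *Chac1*, a glutathione-degrading enzyme, went from 3.21 to 4.05 CPM in control to 32.2 to 37.7 in Pdap1-deficient libraries with LPS-IL-4, and from 0.852 to 1.29 to 27.5 to 31.6 CPM with LPS-BAFF-TGFb. *Trib3*, a pseudokinase induced by Chop, had log2 fold changes of 2.85 (SE 0.22, adjusted p = 0.000135 by edgeR) and 3.86 (SE 0.28, adjusted p = 0.000231). *Sesn2* rose by 1.64 and 2.09. *Ddit3*, which encodes Chop itself, rose by 0.72 with LPS-IL-4 (SE 0.18, adjusted p = 0.0454 by edgeR) and was at 0.54 with LPS-BAFF-TGFb (SE 0.18, adjusted p = 0.371). *Ddit4* rose by 1.34 with LPS-IL-4. In the same group *Tnfrsf10b*, a Chop target too, was at -0.13 and -0.26 and did not pass. Beyond these genes, *Trp53inp1* (0.91) and *Btg2* (0.67) of the p53 targets rose and *Aifm1*, the mitochondrial apoptosis-inducing factor, fell by 0.41 with LPS-IL-4, with adjusted p of 0.0468, 0.0463 and 0.0409, and none of the 3 passed with LPS-BAFF-TGFb. The calls of *Ddit3*, *Trp53inp1*, *Btg2* and *Aifm1* were lost when any 1 control mouse or Pdap1-deficient mouse 3 was left out (adjusted p = 0.0932 to 0.199 by edgeR), and that of *Trp53inp1* without Pdap1-deficient mouse 2 too (adjusted p = 0.0661). That of *Ddit4* was lost without control mouse 1 or 2 (adjusted p = 0.0533 and 0.0682). No gene of these lists passed the interaction test.

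**Figure D4:**
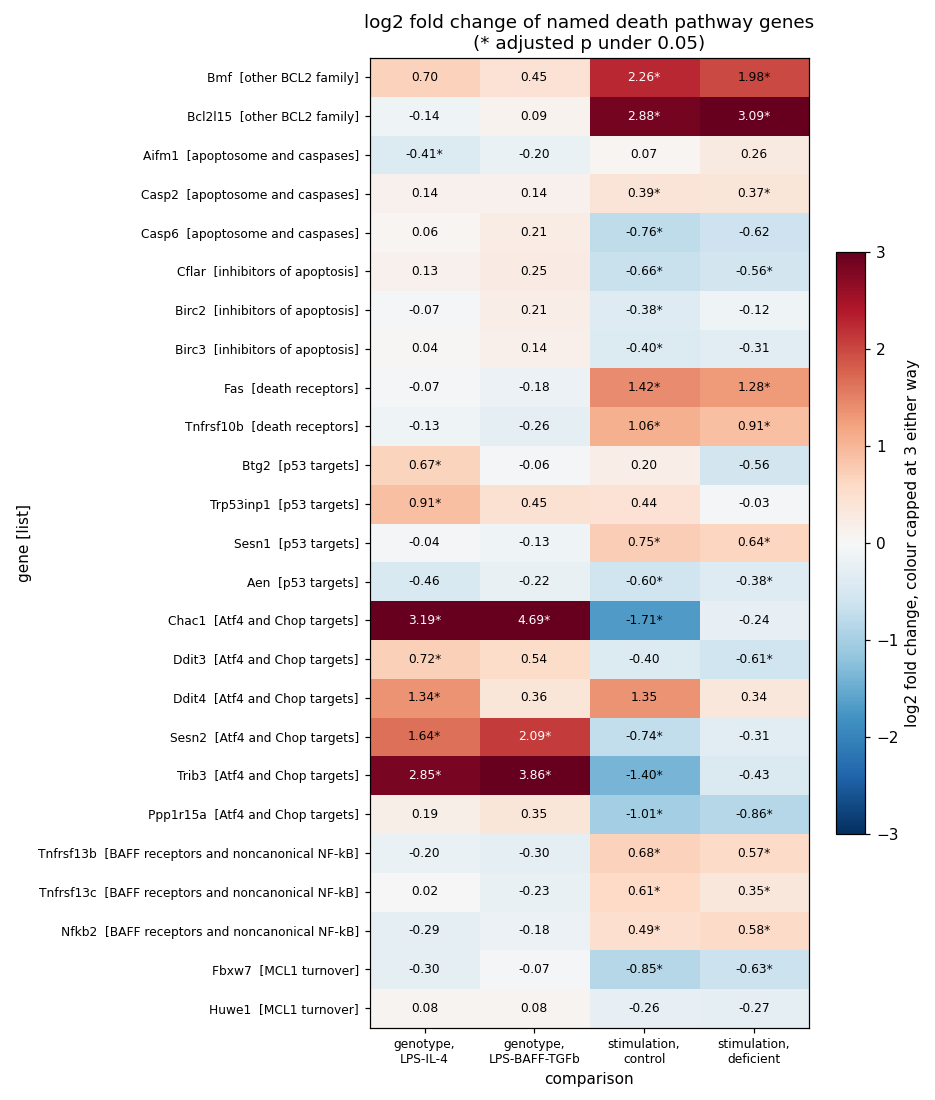
Log2 fold change of named genes outside the 10 members (rows, with their list) by genotype in each culture and by culture in each genotype (columns), with colour capped at 3 and an asterisk for an adjusted p under 0.05. Red is higher in Pdap1-deficient cells or with LPS-BAFF-TGFb: *Chac1* reads 3.19 and 4.69 by genotype, and *Bmf* 2.26 and 1.98 by culture.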

How the data were processed

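RNA was extracted with TRIzol, depleted of ribosomal RNA and made into TruSeq libraries. According to the submitters' processing notes, reads were trimmed with Trim Galore 0.6.1, aligned with STAR 2.6 to GRCm38 and counted per gene with HTSeq 0.9.1, and the deposited raw counts are used here. The labels name a stranded mRNA kit and the study's methods a stranded total RNA kit, and the strand setting of counting is not given in the sources used here. The authors' DESeq2-normalized counts were not used. All 55536 features were named by GENCODE M21.

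CPM used TMM-scaled totals over all 12 libraries, and exon lengths were the union of annotated exons. Tests used edgeR 4.0.16 (filterByExpr, TMM, robust quasi-likelihood, Benjamini-Hochberg over all genes tested) in R 4.3.3, with DESeq2 1.42.0 as an alternative. Other alternatives were DESeq2 size factors, no filter on low counts, no immunoglobulin genes, an adjusted p under 0.01, other sets of libraries, a replicate block and each mouse left out. A sex covariate, leaving out the deep control library, and leaving out control mouse 1 together with Pdap1-deficient mouse 2 were added after seeing the data. The scripts were tested on simulated data. The members and lists were chosen with earlier results of these data known. Named were all members, *Pdap1*, the genes of the other lists that passed by genotype, and in each list the 2 with the smallest p in each comparison of cultures, of which 1 is not reported here.

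Equal numbers mark the same animal in both cultures by the series description. Deviations from the group mean correlated at 0.595, 0.685 and 0.397 between the cultures of the Pdap1-deficient mice and at -0.244, 0.359 and -0.13 between those of the control mice. Between genotypes the numbers pair nothing. No library was a copy of another. Depth limits the members with low counts, *Bcl2a1b*, *Bbc3* and *Bak1*, most.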

Additional observations from a re-analysis of the deposited data

Results flagged for a closer look

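*Mcl1* was flagged because its genotypes lay apart in opposite directions in the cultures. All 3 Pdap1-deficient libraries (390 to 422 CPM) were above the 3 control libraries (364 to 369 CPM) with LPS-IL-4, and all 3 (374 to 407 CPM) were below them (418 to 425 CPM) with LPS-BAFF-TGFb. Separation within a culture was common. The genotypes did not overlap for 31.7% of all genes tested in LPS-IL-4 cells and 18.6% in LPS-BAFF-TGFb cells. How many genes lay apart in opposite directions was not counted. *Mcl1* passed the edgeR test by genotype in neither culture. The difference between the cultures was tested as an interaction. For *Mcl1* the interaction was -0.26 on the log2 scale (SE 0.12, adjusted p = 0.983 by edgeR) and did not pass. Over the alternatives its adjusted p was 0.561 to 1.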

How the results depend on the processing

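Over all alternatives, 718 of the members' values kept their direction and their side of the threshold, 34 turned direction, and without turning 4 were gained and 4 lost as calls; for the other named genes, where named or called, these were 703, 4, 12 and 97. Of those that turned, *Bax* between cultures in control also passed (-0.500, adjusted p = 0.0449 by edgeR) without control mouse 1 and Pdap1-deficient mouse 2. The causes were not tested, and neither was the part of depth in the members with low counts. With LPS-IL-4, 741 genes passed by genotype, against 130 at an adjusted p under 0.01, 1217 with DESeq2, 1694 without the filter on low counts and 173 with sex as a covariate. There 1 member passed with DESeq2 and 1 without the filter, *Pmaip1* in both. With LPS-BAFF-TGFb, 65 genes passed, against 27 at an adjusted p under 0.01, 172 with DESeq2, 257 without the filter, 133 with all 12 libraries, 42 with sex as a covariate and 156 without control mouse 1 and Pdap1-deficient mouse 2. The interaction gave 0 genes with edgeR, 6 with DESeq2 and 1 without the filter. Between cultures, an adjusted p under 0.01 left 1666 of 2868 genes in control and 1194 of 2144 in Pdap1-deficient cells. With each mouse left out in turn, 69 to 1759 genes and 0 to 1 members passed by genotype with LPS-IL-4. The 69 came without control mouse 2 and the 1759 without Pdap1-deficient mouse 1. With LPS-BAFF-TGFb 19 (without control mouse 3) to 116 (without control mouse 1) genes and 0 members passed. Between cultures in Pdap1-deficient cells 1049 (without mouse 3 of that genotype) to 2290 genes and 4 to 5 members passed. For the interaction and the cultures of control cells, the fits also include the one without the deep library alone. There 0 genes passed as an interaction, and 1532 (without control mouse 3) to 3465 genes and 4 members between cultures in control. With mouse number as a replicate block, 641, 48 and 0 genes passed by genotype with LPS-IL-4, with LPS-BAFF-TGFb and as an interaction, and 3409 and 2492 between cultures in control and Pdap1-deficient cells; the block changed no member's call, and among the other named genes *Aifm1* was lost (adjusted p = 0.105 by edgeR) and *Pdap1* with LPS-BAFF-TGFb was gained (0.0347).

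Without control mouse 1 and Pdap1-deficient mouse 2, log2 fold changes that turned were 0.300 for *Bbc3*, 0.094 for *Pmaip1* and 0.289 for *Bcl2a1b* by genotype with LPS-BAFF-TGFb, -0.178 for *Bak1*, -0.500 for *Bax* and -0.064 for *Pdap1* between cultures in control, -0.057 for *Bcl2a1b* between cultures in Pdap1-deficient cells, and 0.227 for *Bax* and 0.044 for *Bcl2* as interactions. Without the deep library alone they were -0.136 for *Bak1*, -0.401 for *Bax* and -0.058 for *Pdap1* between cultures in control, and 0.222 for *Bax*, 0.118 for *Bcl2a1b* and 0.032 for *Bcl2l1* as interactions. *Bid* turned to 0.005 with LPS-BAFF-TGFb under the sex covariate and *Bcl2* to 0.004 with LPS-IL-4 in the fit of all 12 libraries. With each mouse left out, the log2 fold changes that crossed 0 ranged, by genotype with LPS-BAFF-TGFb, from -0.868 to 0.383 for *Bbc3*, -0.059 to 0.015 for *Bid*, -0.061 to 0.064 for *Pmaip1* and -0.970 to 0.403 for *Bcl2a1b*. With LPS-IL-4 they ranged from -0.279 to 0.049 for *Bak1* and -0.107 to 0.094 for *Bcl2*. As interactions they ranged from -1.575 to 0.036 for *Bbc3*, -1.253 to 0.333 for *Bax*, -0.200 to 0.002 for *Bcl2*, -1.266 to 0.093 for *Bcl2a1b* and -0.132 to 0.101 for *Bcl2l1*. Between cultures they ranged from -0.182 to 0.215 for *Bak1*, -0.504 to 1.082 for *Bax* and -0.068 to 0.654 for *Pdap1* in control, and from -0.054 to 0.345 for *Bcl2a1b* and -0.200 to 0.047 for *Pdap1* in Pdap1-deficient cells. The mean log2 ratio of the prosurvival to the proapoptotic sum was 0.568 and 0.871 in control and Pdap1-deficient cells with LPS-IL-4 and 0.771 and 0.846 with LPS-BAFF-TGFb when the longest transcript gave the length, and -0.667, -0.473, -0.024 and 0.174 without *Mcl1* and *Bid*. Leaving out each mouse gave 0.800 to 0.843, 1.151 to 1.170, 1.042 to 1.292 and 1.191 to 1.238 in the same order of groups.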
